A study of Gallus gallus with 6 samples.

Results

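Chaperones and protein folding factors were compared between the ceca and the interceca of the chick embryonic gut. The ceca are the paired blind outgrowths of the gut, and the interceca is the labels' name for the gut region set against them. Both came from embryos at embryonic day 5 (Hamburger-Hamilton stage 26), with 3 RNA-seq libraries of each tissue and no treatment, strain or sex given in the labels. The genes were chosen by symbol (HSPA, HSPB, HSPD1, HSPE1, HSPH1, HSP90, DNAJA, DNAJB, DNAJC, CCT, TCP1, FKBP, PDIA, CALR, CANX and SERPINH2) and by their level, which had to reach 1 RPKM in 3 or more of the 6 libraries. RPKM, deposited by the authors, counts reads relative to gene length and to the size of the library. Of the 17108 genes listed, 82 had such a symbol, 74 of these passed the level and were tested, and 10678 genes were tested in all. The rule used no difference between the tissues. No SERPINH2 was found, and no gene listed under the symbol CCT3, CCT4, DNAJB1 or HSPA2 was analysed here.

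Chaperones bind unfolded or partly folded proteins and let them fold, refold or pass on to degradation. HSP70 proteins work in cycles of ATP use that J proteins (DNAJ) start and exchange factors end, HSP90 acts later on nearly folded clients such as kinases and hormone receptors, and the ring-shaped chaperonins CCT (cytosol) and HSPD1 with HSPE1 (mitochondria) enclose their substrates. In the endoplasmic reticulum, HSPA5 (BiP), HSP90B1 (GRP94), calnexin and protein disulfide isomerases fold secreted and membrane proteins, among them the collagens of the gut mesenchyme. Small heat shock proteins (HSPB) hold unfolded proteins without using ATP and bind actin and intermediate filaments, and FKBP proteins turn peptide bonds at proline.

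Most of this machinery differed little between the tissues. Among the 74 genes tested, ceca had 5 at a higher and 7 at a lower level, and 62 missed the threshold (limma on log2(RPKM + 0.5), Benjamini-Hochberg adjustment over all genes tested, threshold 0.05). The share called was 16.2%, against 27.5% of all genes tested, of which 13.5% were higher and 14.1% lower in ceca. Among the 4719 other genes whose mean RPKM lay between the lower and upper quartile of the chaperone and folding genes (16.2 and 140.4 RPKM) it was 26.2%. The libraries of the tissues did not overlap for 20 of the 74 genes, or 27%, against 44.1% of all genes tested. In ceca, 8 of these were above interceca and 12 below it, against 23% and 21.1% of all genes tested. The median size of the log2 fold change was 0.082 for the chaperone and folding genes, 0.109 for the other genes of like level and 0.151 for all genes tested. Their median signed log2 fold change was -0.033, with 30 positive and 44 negative, against 0.010 over all genes tested. These shares and medians are descriptions, and no test set the list against other genes. Among the 62 genes that did not pass, the 95% interval of the fold change lay within 1.5-fold either way for 61, all but DNAJC12, and within 1.25-fold for 48. Of the other genes of like level, 3482 did not pass, with 3434 of these within 1.5-fold and 2899 within 1.25-fold. Over all genes tested, 7737 did not pass, with 6679 of these within 1.5-fold and 4372 within 1.25-fold.

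**Figure D1:**
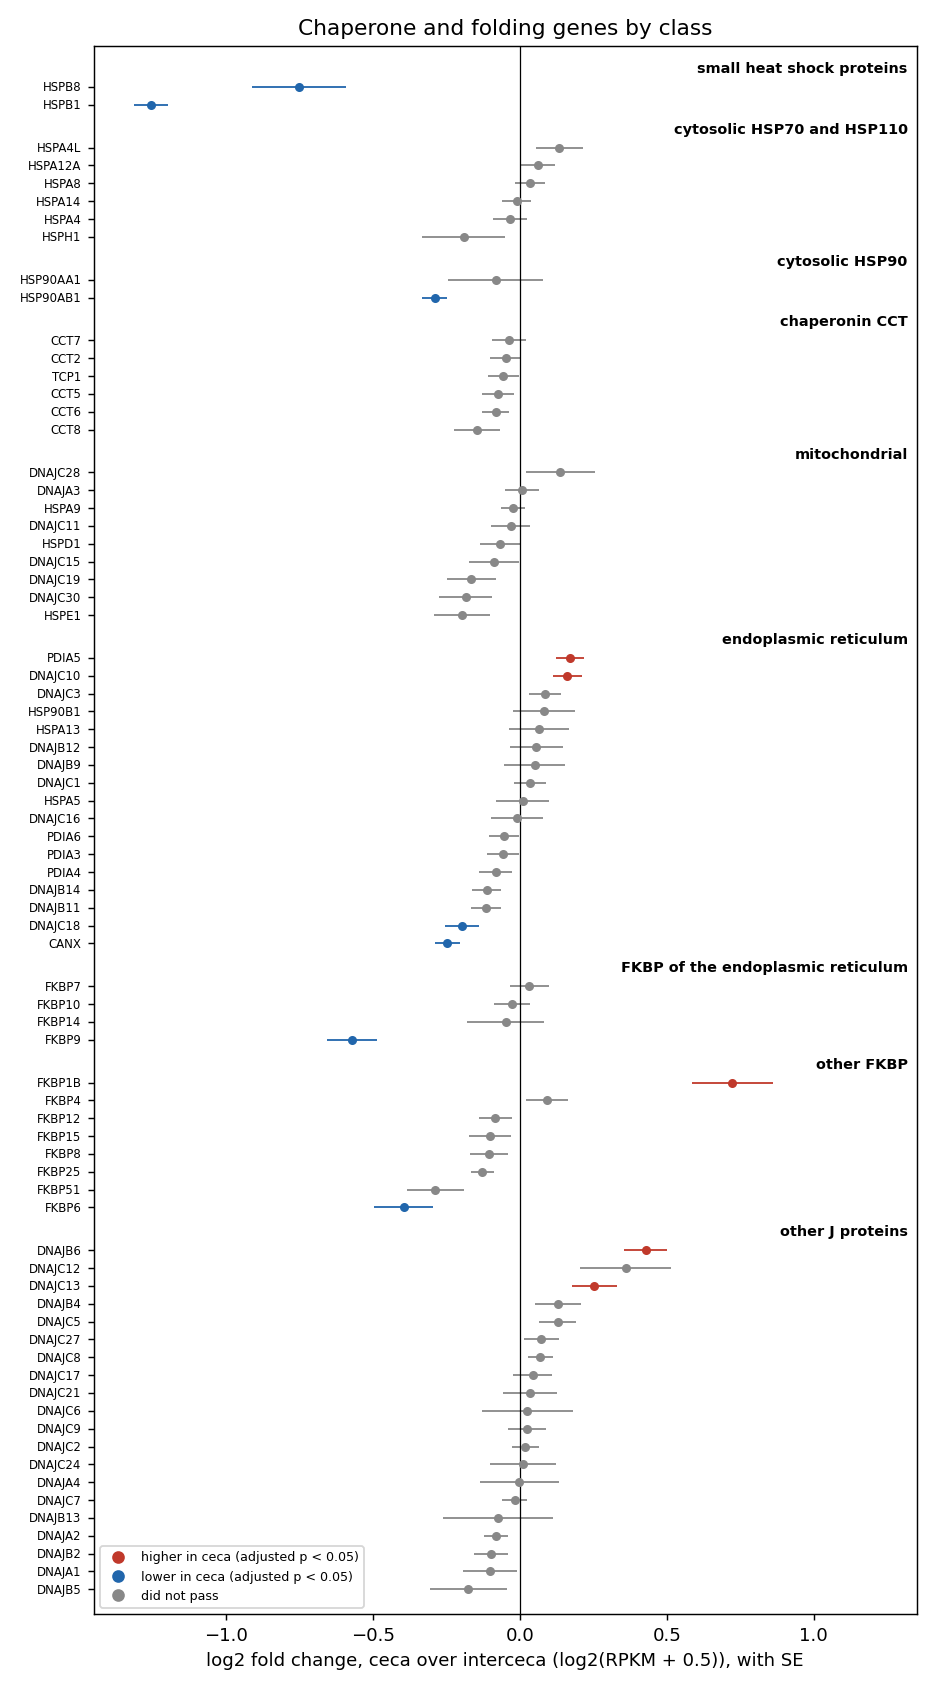
Log2 fold change of ceca over interceca (x axis, log2(RPKM + 0.5) scale) for the 74 genes tested, grouped by class, with 1 point per gene and its standard error as a bar. Most points lie close to 0, and HSPB1 at -1.26, HSPB8 at -0.75, FKBP9 at -0.57, DNAJB6 at 0.43 and FKBP1B at 0.72 stand furthest out among those past the threshold.

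Summed over the 74 genes, the chaperone and folding genes took 1.12, 1.18 and 1.24% of all RPKM in ceca replicates 1 to 3 and 1.17, 1.195 and 1.25% in interceca replicates 1 to 3, so the tissues' ranges overlapped. Recovered reads in genes, worked back from the RPKM, ranged from 15809502 to 22909165 per library. Nothing in the labels ties the libraries to separate embryos, so the p-values measure only how much these samples vary, and that variation may be technical. In bulk tissue, fewer cells of a type and less RNA per cell cannot be told apart. Summed levels of marker genes for other cell types differed between the tissues. Genes of the gut epithelium summed to 139 to 215 RPKM in ceca against 538 to 819 RPKM in interceca, with 7 of 9 tested lower in ceca, 1 higher (CDX2), and KRT8 and KRT18 listed at 0 in every library. Smooth muscle genes summed to 316 to 352 RPKM in ceca against 631 to 661 RPKM in interceca, with 7 of 9 lower. Mesothelial genes summed to 343 to 371 RPKM in ceca against 109.6 to 118 RPKM in interceca, with 4 of 5 higher and 1 lower. The lower gene was MSLN (log2 fold change -2.27). WT1, at means of 188 RPKM in ceca and 27.8 RPKM in interceca, was the largest part of the mesothelial sum in ceca. Neural crest and neuronal genes summed to 760.3 to 857 RPKM in ceca against 912 to 963 RPKM in interceca, endothelial genes to 102 to 117 RPKM in ceca against 84.3 to 112 RPKM in interceca, and blood and macrophage genes to 438 to 470.4 RPKM in ceca against 313 to 421 RPKM in interceca. Among these last lists, 4 of 9 neural genes tested were lower in ceca, while 2 of 6 endothelial genes and 1 of 5 blood and macrophage genes were higher. TUBB3, at means of 765 RPKM in ceca and 855 RPKM in interceca, made up most of the neural sum and did not pass (limma adjusted p = 0.113). The blood and macrophage gene called was LCP1 (log2 fold change 1.67), while CSF1R (-0.13) and SPI1 (-0.05) did not pass. The globin gene HBAD and an entry named HBZ were listed at 0 in every library. A further HBZ entry was at 272, 288 and 301 RPKM in ceca against 279, 242 and 215 RPKM in interceca. Together with HBE, at means of 143 RPKM in ceca and 113 RPKM in interceca, it made up most of the blood and macrophage sum. Neither HBE nor this HBZ entry passed the threshold. The part of cell makeup in the results that follow was not tested.

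The small heat shock proteins held the largest fold change of the set, and both members tested were lower in ceca. Of all genes tested, 14.1% were lower in ceca. HSPB1 (ENSGALG00000001926), which binds actin and unfolded proteins, stood at 39.7, 39.98 and 39.2 RPKM in ceca replicates 1 to 3, against 89.2, 103 and 94.3 RPKM in interceca replicates 1 to 3. Every ceca library lay below 89.2 RPKM, the lowest interceca value, and the ceca libraries lay within 1 RPKM of each other. The means were 39.7 ± 0.376 RPKM in ceca and 95.5 ± 7.0 RPKM in interceca (SD, n = 3 each), and HSPB1 fell by 1.26 on the log2 scale (SE 0.06, limma adjusted p = 7.36e-06). HSPB8 (ENSGALG00000007383), which works with BAG3 to send misfolded proteins to autophagy, was at 5.41, 7.96 and 6.64 RPKM in ceca against 9.44, 12.3 and 12.9 RPKM in interceca. It was lower in ceca (log2 fold change -0.75 ± 0.16 SE, adjusted p = 0.00954), with no overlap, and in each tissue replicate 1 was the lowest library. Both calls held under all 15 alternatives run. The lower level of HSPB1 and HSPB8 in ceca went the same way as the summed levels of the epithelial, smooth muscle and neural lists given above. It went against those of the mesothelial and the blood and macrophage lists. With only these tissues compared, every gene lower in ceca goes these ways. None of these sums overlapped between the tissues, but the neural sum was mostly TUBB3 and the blood and macrophage sum mostly HBZ and HBE.

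The other small heat shock genes were at or near the limit of detection. HSPB7, a family member known from heart and muscle, was below the level set for testing and rested on 0, 1 and 2 reads in ceca against 6, 6 and 11 reads in interceca. The ceca libraries thus held at most 2 reads of it and the interceca libraries at least 6. HSPB2 had 1 read in interceca replicate 3 and none elsewhere, and HSPB3 was listed at 0 in all 6 libraries. CRYAB, the small heat shock protein of lens and muscle, which the symbol rule does not take, was at 0.171, 0.256 and 0.489 RPKM in ceca against 0.599, 0.825 and 0.718 RPKM in interceca and was not tested. The genes of the whole set nearest the level for testing were DNAJB13, just above it at 1.77, 0.981 and 1.26 RPKM in ceca replicates 1 to 3, against 1.37, 1.41 and 1.43 RPKM in interceca replicates 1 to 3, and HSPB7, just below it, whose highest value was 0.509 RPKM.

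**Figure D2:**
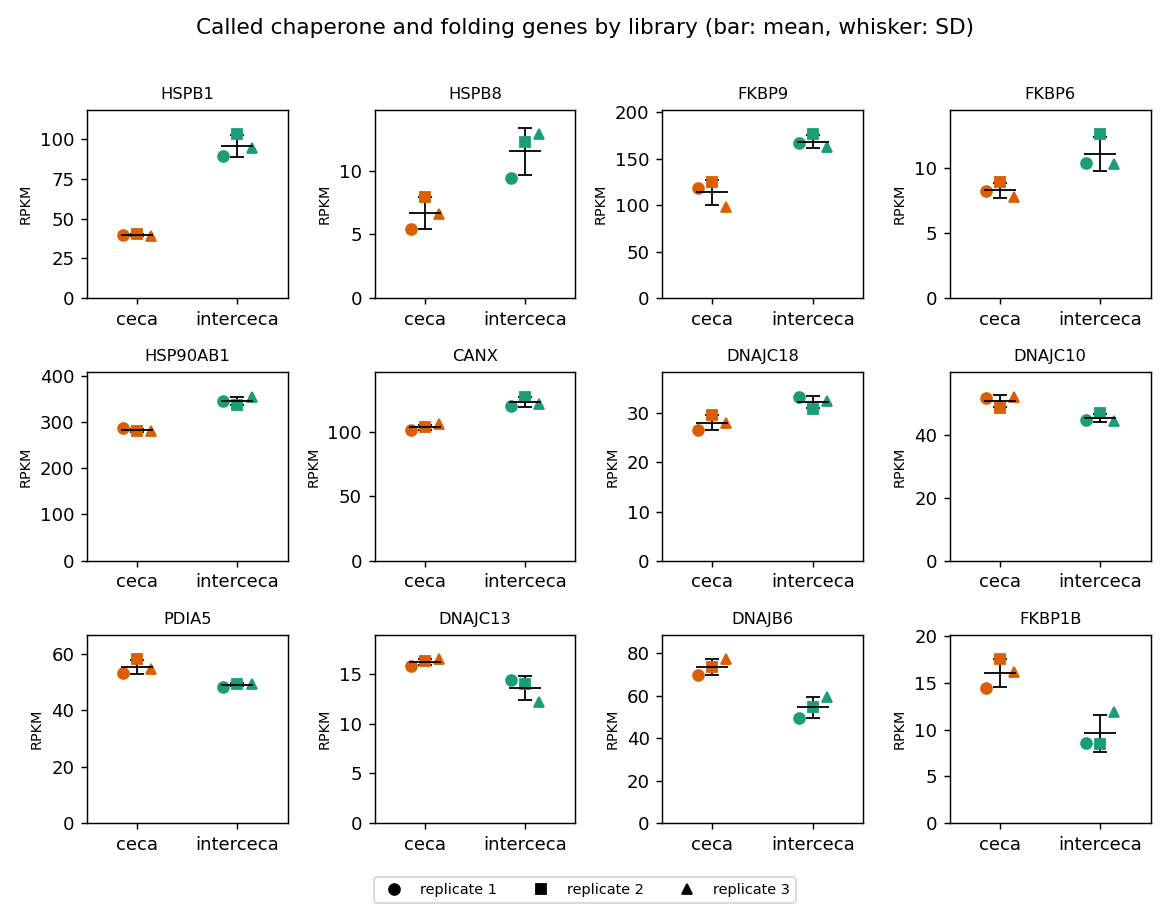
RPKM (y axis, from 0) in each library of the 12 genes past the threshold, ceca on the left and interceca on the right of each panel, with the mean as a bar and the SD as a whisker (n = 3 each). No ceca library overlaps an interceca library in any of the panels, and the largest fold is that of HSPB1, at 39.7 RPKM on average in ceca and 95.5 RPKM in interceca.

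None of the 6 cytosolic HSP70 and HSP110 genes tested passed the threshold, against 27.5% of all genes tested. Their log2 fold changes were -0.19 to 0.13, with adjusted p of 0.257 to 0.894 (limma). At an unadjusted p under 0.05 there was none either, and limma-voom on the recovered reads called none. HSPA8 (ENSGALG00000006512), the constitutive HSP70 of the cytosol and among the most abundant genes of the set, was at 382, 368 and 409 RPKM in ceca replicates 1 to 3, against 369, 377 and 383 RPKM in interceca replicates 1 to 3. These values overlap, and the 95% interval of its log2 fold change was -0.09 to 0.15. HSPH1 (ENSGALG00000017077), an HSP110 that exchanges the nucleotide of HSP70 and is induced by heat, was at 14.99, 18.4 and 20.2 RPKM in ceca against 17.2, 19.9 and 24.3 RPKM in interceca. Its libraries differed more within a tissue than the tissue means did (log2 fold change -0.19 ± 0.14 SE, adjusted p = 0.365). With the replicate number as a block, the adjusted p was 0.0372 for HSPH1 and 0.0387 for HSPA4L, another HSP110 relative, which was at 42.9, 44.8 and 49.9 RPKM in ceca against 38.6, 41.1 and 45.7 RPKM in interceca (log2 fold change 0.13 ± 0.08 SE, adjusted p = 0.257 without the block). HSPA4, HSPA12A and HSPA14 lay between 23.9 and 33.97 RPKM in every library. The gene listed as hsp70 (ENSGALG00000011715), outside the symbol rule, did differ, at 52.00, 50.3 and 63.00 RPKM in ceca against 73.4, 84.6 and 89.5 RPKM in interceca (log2 fold change -0.58 ± 0.10 SE, adjusted p = 0.0039). HSP70 genes resemble each other in sequence, and how reads matching several of them were counted is not given in the sources used here.

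Of the cytosolic HSP90 genes, 1 was lower in ceca and the other did not pass, against 14.1% lower among all genes tested. HSP90AB1 (ENSGALG00000010175), the constitutive form, was at 286, 281 and 280.2 RPKM in ceca replicates 1 to 3, against 346, 336 and 355 RPKM in interceca replicates 1 to 3. It was lower in ceca with little spread in either tissue (log2 fold change -0.29 ± 0.04 SE, adjusted p = 0.00153). HSP90AA1 (ENSGALG00000011351), the inducible form, was at 280.1, 325 and 409.7 RPKM in ceca against 294, 354 and 425 RPKM in interceca, and the libraries of the tissues overlapped (log2 fold change -0.08 ± 0.16 SE, adjusted p = 0.749, 95% interval -0.46 to 0.29). For HSP90AA1, replicate 1 was lowest and replicate 3 highest in both tissues. The ratio of HSP90AA1 to HSP90AB1, on the per-length RPKM scale, was 0.979, 1.16 and 1.46 in ceca replicates 1 to 3 against 0.851, 1.05 and 1.198 in interceca replicates 1 to 3. It was higher in ceca than in interceca at each replicate number, but the ranges of the tissues overlapped. The difference between the fold changes of these genes was not tested. FKBP4, a co-chaperone of HSP90 in hormone receptor complexes, was at 153, 165 and 167 RPKM in ceca against 137, 153 and 166 RPKM in interceca and did not pass (log2 fold change 0.09 ± 0.07 SE, adjusted p = 0.395).

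**Figure D3:**
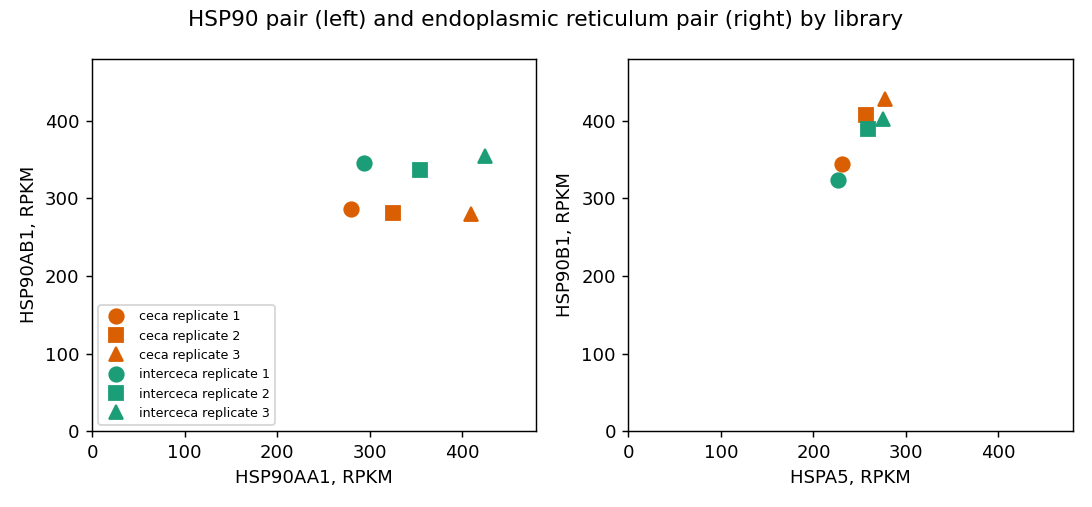
RPKM of HSP90AA1 against HSP90AB1 (left) and of HSPA5 against HSP90B1 (right), 1 point per library, ceca in orange and interceca in green, with the replicate number as the symbol. HSP90AB1 separates the tissues at 280.2 to 286 RPKM in ceca and 336 to 355 RPKM in interceca, while the other genes overlap and have their lowest value in replicate 1 of each tissue.

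Subunits of the chaperonin CCT, which folds actin and tubulin, did not pass the threshold in any of the 6 cases tested. Of all genes tested, 27.5% passed. The log2 fold changes of the subunits were -0.15 to -0.04, all of them negative, with adjusted p of 0.214 to 0.669 (limma). None had an unadjusted p under 0.05, and limma-voom on the recovered reads called none. Their summed level was 1092, 1139 and 1170.5 RPKM in ceca against 1136, 1186 and 1272 RPKM in interceca. Per gene length, TCP1 (ENSGALG00000011637), the first CCT subunit described, was the most abundant, at 262, 276 and 271 RPKM in ceca replicates 1 to 3, against 266, 281 and 296 RPKM in interceca replicates 1 to 3. CCT7, CCT8 and CCT6 followed at means over the 6 libraries of 253, 241 and 231 RPKM. CCT8 changed places with each of the others between libraries, while CCT7 lay above CCT6 in every library. CCT5 at 103 RPKM and CCT2 at 61.99 RPKM were below those subunits in every library. CCT8 was at 217, 230.2 and 239.6 RPKM in ceca against 226, 257 and 279 RPKM in interceca (log2 fold change -0.15 ± 0.08 SE, adjusted p = 0.214). Its adjusted p was 0.0275 with the replicate block and 0.0349 without interceca replicate 1, and over the alternatives it lay between 0.0275 and 0.507. Replicate 1 was the lowest library in both tissues for 5 of the 6 subunits. It was so for 41.9% of the 74 genes, 22.9% of the other genes of like level and 21.2% of all genes tested.

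Of the 9 mitochondrial chaperones and J proteins tested, none passed (log2 fold changes -0.20 to 0.14, adjusted p 0.166 to 0.941, limma), against 27.5% of all genes tested. At an unadjusted p under 0.05 there was none, nor did limma-voom on the recovered reads call any. HSPE1 (ENSGALG00000009070), the lid of the mitochondrial chaperonin, was at 237, 276 and 275 RPKM in ceca replicates 1 to 3, against 269, 296 and 339.8 RPKM in interceca replicates 1 to 3. HSPD1 (ENSGALG00000008094), its barrel, was at 255, 275 and 294 RPKM in ceca against 269.9, 289 and 304 RPKM in interceca. The ratio of HSPD1 to HSPE1 in RPKM was 1.08, 0.997 and 1.07 in ceca replicates 1 to 3 against 1.003, 0.978 and 0.894 in interceca replicates 1 to 3. This ratio was higher in ceca than in interceca at each replicate number, but the ranges of the tissues overlapped, and the difference was not tested. HSPD1 and HSPE1 are next to each other among the protein-coding genes of a newer RefSeq assembly, GRCg7b. With the replicate block the adjusted p was 0.0134 for HSPE1 and 0.139 for HSPD1. A further entry named HSPE1 was listed at 0 in all 6 libraries. HSPA9, the HSP70 of the mitochondrial matrix, was at 163, 156 and 156 RPKM in ceca against 161, 159 and 162 RPKM in interceca, a narrow range (log2 fold change -0.02 ± 0.04 SE, adjusted p = 0.7). Among the smaller J proteins of this compartment, DNAJC30 did not overlap between the tissues, at 8.62, 8.86 and 9.24 RPKM in ceca against 9.903, 11.5 and 9.31 RPKM in interceca, but did not pass (log2 fold change -0.19 ± 0.09 SE, adjusted p = 0.178).

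In the endoplasmic reticulum, ceca had a higher level of 2 of the 17 genes tested and a lower level of 2, and 13 missed the threshold. These shares, 11.8% higher and 11.8% lower, stand against 13.5% and 14.1% of all genes tested. CANX (ENSGALG00000005945), calnexin, the membrane lectin that holds newly made glycoproteins, was lower, at 101, 103 and 106 RPKM in ceca replicates 1 to 3, against 119.8, 127 and 121 RPKM in interceca replicates 1 to 3 (log2 fold change -0.25 ± 0.04 SE, adjusted p = 0.00369). That call held under all 15 alternatives. DNAJC18, a J protein, was also lower, at 26.6, 29.6 and 28.1 RPKM in ceca against 33.4, 31.00 and 32.6 RPKM in interceca (log2 fold change -0.20 ± 0.06 SE, adjusted p = 0.0372). Higher in ceca were PDIA5, a protein disulfide isomerase, at 53.3, 58.03 and 54.8 RPKM in ceca against 48.4, 49.4 and 49.5 RPKM in interceca (log2 fold change 0.17 ± 0.05 SE, adjusted p = 0.0302), and DNAJC10 (ERdj5), a reductase of the same compartment, at 51.6, 48.5 and 51.99 RPKM in ceca against 44.7, 46.9 and 44.3 RPKM in interceca (log2 fold change 0.16 ± 0.05 SE, adjusted p = 0.0428). None of the libraries overlapped for these 3 genes, but the differences were at most 0.20 on the log2 scale and their calls did not hold throughout. The adjusted p of DNAJC18 was 0.0644 with limma without a trend, 0.0752 with limma-voom on recovered reads, 0.104 without ceca replicate 1, 0.102 without ceca replicate 3, 0.0972 without interceca replicate 1 and 0.0916 without interceca replicate 3. For PDIA5 it was 0.0686 with limma without a trend, 0.101 without ceca replicate 2, 0.082 without ceca replicate 3, 0.0744 without interceca replicate 1, 0.0743 without interceca replicate 2 and 0.061 without interceca replicate 3. For DNAJC10 it was 0.0511 with median-of-ratios scaling, 0.0544 with quantile normalization, 0.0867 with limma without a trend, 0.11 without ceca replicate 1, 0.148 without ceca replicate 3, 0.0961 without interceca replicate 1, 0.0563 without interceca replicate 2 and 0.11 without interceca replicate 3. CALR, calreticulin, the soluble partner of calnexin, and PDIA2 were listed at 0 in all 6 libraries.

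The main folding enzymes of the endoplasmic reticulum, most of which are induced when unfolded proteins build up there, overlapped between the tissues. HSP90B1 (ENSGALG00000012726), the HSP90 of this compartment, which with HSPA8 had the highest mean RPKM of the set, was at 344, 408 and 428 RPKM in ceca replicates 1 to 3, against 323, 389.7 and 402 RPKM in interceca replicates 1 to 3 (log2 fold change 0.08 ± 0.10 SE, adjusted p = 0.606). It differed from HSPA8, at means of 382 and 381 RPKM over the 6 libraries, by less than the spread between libraries. HSPA5 (ENSGALG00000001000), or BiP, was at 230.3, 257 and 277 RPKM in ceca against 226, 259 and 275 RPKM in interceca, and its log2 fold change of 0.01 ± 0.09 SE had a 95% interval of -0.20 to 0.22. In both genes and both tissues replicate 1 was the lowest library and replicate 3 the highest. PDIA4 was at 128, 139 and 136 RPKM in ceca against 133, 147 and 147 RPKM in interceca (log2 fold change -0.08 ± 0.06 SE, adjusted p = 0.32). DNAJB11, a J protein that serves BiP, was at 38.2, 40.1 and 38.04 RPKM in ceca against 39.999, 42.4 and 43.8 RPKM in interceca (log2 fold change -0.12 ± 0.05 SE, adjusted p = 0.145). DNAJB9, another of them, was at 6.43, 5.98 and 7.24 RPKM in ceca against 6.55, 5.73 and 6.62 RPKM in interceca (log2 fold change 0.05 ± 0.10 SE, adjusted p = 0.758). Both overlapped between the tissues. DNAJC3, another J protein of this compartment, which also restrains the stress kinase PKR, was at 39.2, 42.2 and 42.8 RPKM in ceca against 37.3, 39.3 and 40.2 RPKM in interceca (log2 fold change 0.09 ± 0.05 SE, adjusted p = 0.282). PDIA3, which acts on glycoproteins held by calnexin, and PDIA6 averaged 328 and 265 RPKM over the 6 libraries and did not pass (log2 fold changes -0.06 ± 0.05 and -0.05 ± 0.05 SE). Over all 13 genes of this compartment that did not pass, log2 fold changes ran from -0.12 to 0.09 and adjusted p from 0.131 to 0.953.

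FKBP9 (ENSGALG00000012193), a prolyl isomerase of the endoplasmic reticulum, was lower in ceca, at 118, 125 and 98.5 RPKM in ceca replicates 1 to 3, against 167, 176 and 162 RPKM in interceca replicates 1 to 3 (log2 fold change -0.57 ± 0.09 SE, adjusted p = 0.00182). No ceca library reached the lowest interceca value, and the call held under all 15 alternatives. The related FKBP10, which helps to fold procollagen, was at 55.6, 55.3 and 52.00 RPKM in ceca against 55.5, 59.3 and 51.5 RPKM in interceca and overlapped (log2 fold change -0.03 ± 0.06 SE, adjusted p = 0.773). The ratio of FKBP9 to FKBP10 in RPKM was 2.12, 2.26 and 1.89 in ceca replicates 1 to 3 against 3.001, 2.98 and 3.15 in interceca replicates 1 to 3, with no overlap. FKBP7 and FKBP14, of the same compartment, had log2 fold changes of 0.03 ± 0.07 and -0.05 ± 0.13 SE and did not pass. Like every gene lower in ceca, FKBP9 went the same way as the summed epithelial, smooth muscle and neural markers. It went against the summed mesothelial and the blood and macrophage markers. Of these sums, the neural was mostly TUBB3 and the blood and macrophage mostly HBZ and HBE.

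Among the 8 other FKBP genes, FKBP1B was higher in ceca, FKBP6 was lower and 6 did not pass. The shares were 12.5% higher and 12.5% lower, against 13.5% and 14.1% of all genes tested. FKBP1B (ENSGALG00000016500), known for binding the ryanodine receptor, the calcium channel of muscle stores, was at 14.5, 17.5 and 16.2 RPKM in ceca replicates 1 to 3, against 8.53, 8.45 and 11.9 RPKM in interceca replicates 1 to 3. It was higher in every ceca library than in any interceca library (log2 fold change 0.72 ± 0.14 SE, adjusted p = 0.00575), a call that held under all 15 alternatives. Interceca replicate 3 lay above the other interceca libraries. Its close relative FKBP12, the FKBP1A of other species and the abundant cytosolic target of FK506 and rapamycin, was at 339.9, 362 and 362 RPKM in ceca against 352, 383 and 391.98 RPKM in interceca and overlapped (log2 fold change -0.08 ± 0.06 SE, adjusted p = 0.311). The ratio of FKBP1B to FKBP12 in RPKM was 0.0425, 0.0484 and 0.0448 in ceca replicates 1 to 3 against 0.0242, 0.022 and 0.0303 in interceca replicates 1 to 3. FKBP6, known from meiosis in mouse, was at 8.25, 8.93 and 7.76 RPKM in ceca against 10.4, 12.6 and 10.4 RPKM in interceca (log2 fold change -0.40 ± 0.10 SE, adjusted p = 0.0213). Its adjusted p was 0.0523 without ceca replicate 1, 0.0796 without ceca replicate 3 and 0.0618 without interceca replicate 2. FKBP51, the FKBP5 of other species and a target gene of the glucocorticoid receptor, was at 10.7, 9.12 and 8.37 RPKM in ceca against 11.2, 11.7 and 11.8 RPKM in interceca and did not overlap, but missed the threshold (log2 fold change -0.29 ± 0.10 SE, adjusted p = 0.062). For FKBP51 the adjusted p was 0.0298 with limma-voom on recovered reads and 0.016 without ceca replicate 1. FKBP25, the nuclear FKBP3 of other species, was at 179, 172 and 180.0 RPKM in ceca against 197, 194 and 190.4 RPKM in interceca, also without overlap, with an adjusted p of 0.050002 and a log2 fold change of -0.13 ± 0.04 SE. It was 0.0497 with a pseudocount of 1, 0.0448 with no filter on low values, 0.038 with median-of-ratios scaling and 0.0271 with the replicate block. The other genes of this class, FKBP15, FKBP4 and FKBP8, had log2 fold changes of -0.10 to 0.09 and did not pass. Like every gene higher in ceca, FKBP1B went the same way as the summed mesothelial and the blood and macrophage markers. It went against the summed epithelial, smooth muscle and neural markers. The blood and macrophage sum was mostly HBZ and HBE, and the neural sum mostly TUBB3.

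Among the 20 remaining J proteins tested, 2 were higher in ceca and none was lower, and 18 missed the threshold. The share higher was 10%, against 13.5% of all genes tested, of which 14.1% were lower. DNAJB6 (ENSGALG00000006477), which keeps aggregation-prone proteins soluble, was higher at 69.8, 73.5 and 77.1 RPKM in ceca replicates 1 to 3, against 49.6, 54.6 and 59.6 RPKM in interceca replicates 1 to 3. The tissues did not overlap (log2 fold change 0.43 ± 0.07 SE, adjusted p = 0.00343), and the call held under all 15 alternatives. DNAJC13, a J protein of endosomes, was at 15.8, 16.3 and 16.4 RPKM in ceca against 14.4, 14.02 and 12.2 RPKM in interceca (log2 fold change 0.25 ± 0.08 SE, adjusted p = 0.0429). Its adjusted p was 0.0569 with no filter on low values, 0.0501 with median-of-ratios scaling, 0.0606 with quantile normalization, 0.0537 with limma without a trend, 0.0728 without ceca replicate 1, 0.108 without ceca replicate 2, 0.127 without ceca replicate 3, 0.07 without interceca replicate 2 and 0.102 without interceca replicate 3. DNAJC12 was at 27.7, 23.03 and 23.6 RPKM in ceca against 24.97, 16.2 and 17.3 RPKM in interceca (log2 fold change 0.36 ± 0.16 SE, adjusted p = 0.128). Interceca replicate 1 lay inside the range of the ceca libraries, and the adjusted p was 0.0104 with the replicate block and 0.00592 without interceca replicate 1. The heat-inducible DNAJA1 was at 66.3, 80.2 and 79.8 RPKM in ceca against 72.6, 85.7 and 84.6 RPKM in interceca (log2 fold change -0.10 ± 0.09 SE, adjusted p = 0.453), and DNAJA4 at 33.1, 35.8 and 44.1 RPKM in ceca against 33.7, 34.8 and 44.8 RPKM in interceca, with replicate 3 the highest library in both tissues. DNAJA2, the most abundant of these genes, was at 171, 173 and 168 RPKM in ceca against 176, 179.9 and 186 RPKM in interceca without overlap and did not pass (log2 fold change -0.08 ± 0.04 SE, adjusted p = 0.182). Over all 18 J proteins of this class that did not pass, log2 fold changes ran from -0.18 to 0.36 and adjusted p from 0.128 to 0.995. That no gene of the class was lower held at an unadjusted p under 0.05 and in limma-voom. The class was not tested against other genes. DNAJB8 was listed at 0 in all 6 libraries and DNAJC5B had 2 reads, both in ceca replicate 3.

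Several chaperone genes varied with the replicate number in both tissues. The labels give both tissues the numbers 1 to 3, and the mean of the same-numbered libraries on the log2(RPKM + 0.5) scale was taken per gene. Its span from the lowest to the highest number was largest for HSP90AA1, at 0.54, followed by HSPH1 at 0.45, HSPB8 at 0.44, DNAJC12 at 0.44 and DNAJA4 at 0.41. For HSPB8, unlike the others named, the tissue log2 fold change, -0.75, was larger in size than the span. The median span was 0.128 over the 74 genes, 0.114 over the other genes of like level and 0.148 over all genes tested. The span was larger than the tissue log2 fold change for 47 of the 74 genes (63.5%). It was so for 49.3% of the other genes of like level and 47.6% of all genes tested. These measures are not alike. The span takes the extremes of means over fewer libraries than the fold change uses. Spread between libraries alone thus tends to make the span larger. Replicate 1 was the lowest and replicate 3 the highest library in both tissues for 18 of the 74 genes, or 24.3%, against 6.58% of all genes tested and 7.06% of the other genes of like level. They were CCT5, CCT7, CCT8, DNAJA4, DNAJB6, DNAJC15, DNAJC3, FKBP12, FKBP14, FKBP4, HSP90AA1, HSP90B1, HSPA4, HSPA4L, HSPA5, HSPD1, HSPH1 and PDIA3. The pattern was chosen after the values were seen and was not tested, and the labels do not say what a number stands for. Replicate 1 also had the fewest recovered reads in both tissues. Ceca replicates 1 to 3 had 20981662, 22909165 and 21496972 reads, and interceca replicates 1 to 3 had 15809502, 20159632 and 22899113 reads. The part of depth in this pattern was not tested. With the replicate number as a block, 7 of the 74 genes were higher and 11 of the 74 lower in ceca. Of all 10678 genes tested, 1879 (17.6%) were higher and 1888 (17.7%) lower. The 12 genes of the set called without the block were all among the 18 called with it, and CCT8, DNAJC12, FKBP25, HSPA4L, HSPE1 and HSPH1 were added.

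**Figure D4:**
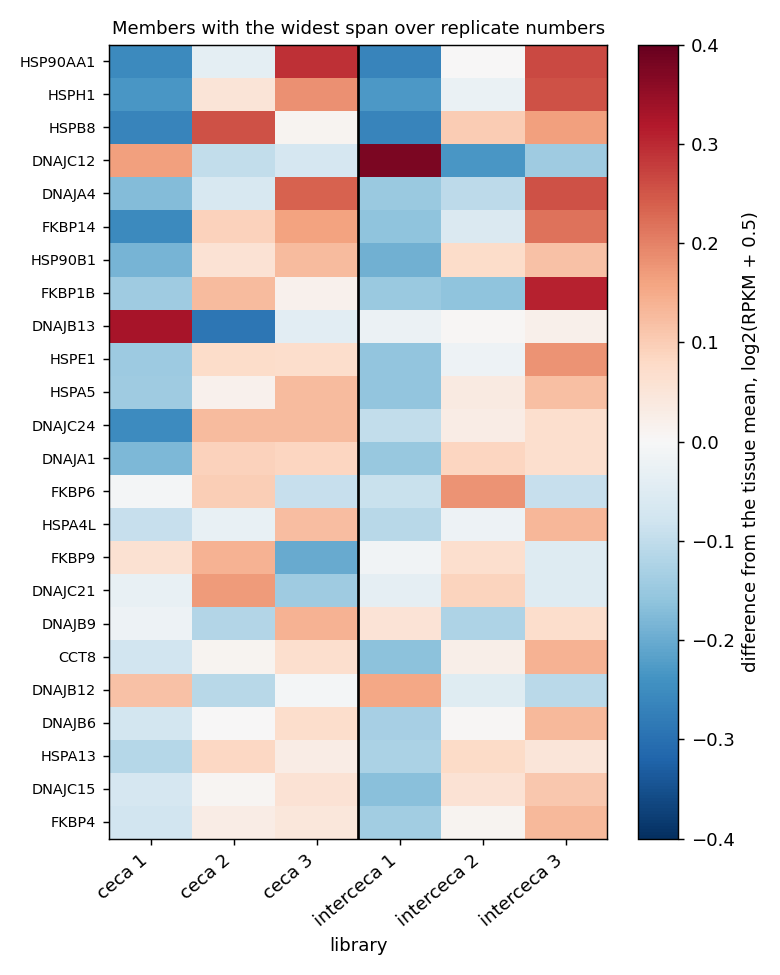
Difference of each library from its tissue mean (colour, log2(RPKM + 0.5) scale) for the 24 genes with the widest span over replicate numbers, ceca libraries left of the line and interceca libraries right of it. In HSP90AA1, HSPH1, DNAJA4, HSP90B1 and HSPA5, replicate 1 is low and replicate 3 high in both tissues, and DNAJC12 shows the opposite for replicate 1.

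**Figure D5:**
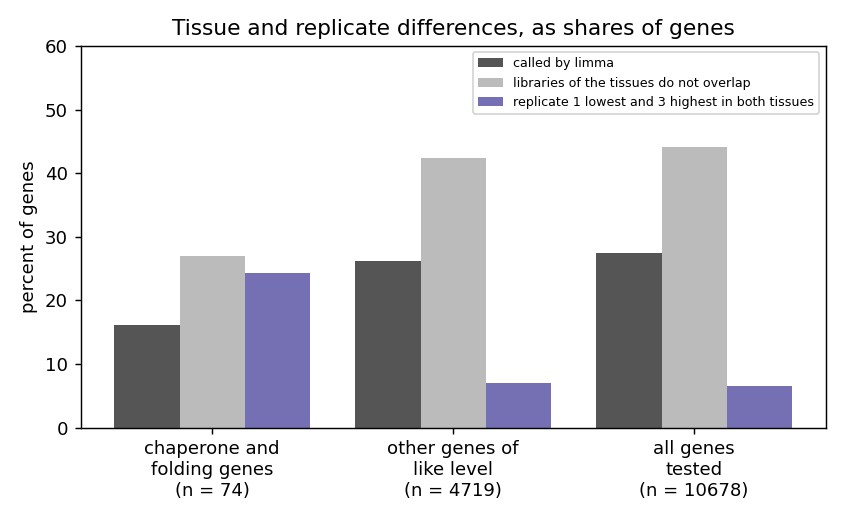
Percent of genes (y axis, from 0) that were called by limma, whose tissues did not overlap, and whose replicate 1 was lowest and replicate 3 highest in both tissues, for the 74 chaperone and folding genes, the 4719 other genes of like level and all 10678 genes tested. The chaperone and folding genes had 16.2% called against 27.5% of all genes, and 24.3% with that replicate order against 6.58%.

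Co-chaperones, other folding enzymes and stress regulators outside the symbol rule were read from a list of 97 symbols chosen by role. Of these, 80 were found and 70 tested, with 6 at a higher level in ceca, 6 at a lower level and 58 short of the threshold, so 17.1% were called against 27.5% of all genes tested. The median log2 fold change was -0.019. The furthest toward interceca was BAG2 (ENSGALG00000026605), a co-chaperone of HSP70, at 9.31, 10.9 and 8.98 RPKM in ceca replicates 1 to 3, against 16.7, 18.6 and 20.9 RPKM in interceca replicates 1 to 3 (log2 fold change -0.91 ± 0.10 SE, adjusted p = 0.000475). Also lower in ceca were hsp70, the BiP exchange factor SIL1 (-0.52 ± 0.10), the mitochondrial prolyl isomerase PPIF (-0.32 ± 0.06), the disulfide isomerase TXNDC5 (-0.32 ± 0.05) and the secreted stress protein MANF (-0.23 ± 0.06, log2 fold change and SE in each case). PPIC, a cyclophilin of the secretory pathway, was highest toward ceca at 27.9, 38.95 and 30.9 RPKM in ceca against 16.8, 20.4 and 20.3 RPKM in interceca (log2 fold change 0.74 ± 0.13 SE, adjusted p = 0.00357). With it were higher GRPEL2 (0.31 ± 0.06), TMX3 (0.21 ± 0.04), the disulfide oxidase ERO1LB (0.29 ± 0.07), the mitochondrial CLPX (0.20 ± 0.05) and the CCT partner PDCL (0.28 ± 0.09). Among these 12 genes, CLPX, ERO1LB, MANF and PDCL lost their calls under some alternatives. The adjusted p of CLPX was 0.0504 without ceca replicate 1, 0.0563 without ceca replicate 2, 0.069 without ceca replicate 3, 0.0641 without interceca replicate 2 and 0.0564 without interceca replicate 3. The adjusted p of ERO1LB was 0.053 without ceca replicate 2, 0.0647 without ceca replicate 3 and 0.0567 without interceca replicate 2. The adjusted p of MANF was 0.0571 with limma without a trend, 0.0542 without ceca replicate 1, 0.0542 without ceca replicate 2, 0.0716 without interceca replicate 2 and 0.0692 without interceca replicate 3. The adjusted p of PDCL was 0.0688 with no filter on low values, 0.0509 with median-of-ratios scaling, 0.0863 with limma without a trend, 0.0643 without ceca replicate 1, 0.101 without ceca replicate 3, 0.119 without interceca replicate 1, 0.07 without interceca replicate 2 and 0.0967 without interceca replicate 3. With the replicate block, 10 of the 70 genes tested from the list were higher and 10 lower. Of all genes tested, 17.6% were higher and 17.7% lower with the block.

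The regulators of the heat shock and unfolded protein responses that were tested, and the folding enzymes named next, did not pass the threshold. HSF2, a heat shock transcription factor, was at 48.4, 49.8 and 51.1 RPKM in ceca against 45.6, 46.2 and 45.6 RPKM in interceca without overlap (log2 fold change 0.12 ± 0.04 SE, adjusted p = 0.0804). HSF1, listed at 0 in all 6 libraries, and HSF4, below the level set for testing, were not tested. The regulators HSF3, DDIT3 and PPP1R15A were not found under these symbols. BAG3, a heat shock target and partner of HSPB8, was at 16.04, 15.98 and 17.5 RPKM in ceca against 15.4, 17.3 and 16.4 RPKM in interceca (log2 fold change 0.01 ± 0.07 SE, adjusted p = 0.93). XBP1 and ATF4, transcription factors of the unfolded protein response, had log2 fold changes of -0.12 ± 0.06 and -0.02 ± 0.05 SE. HYOU1, a large HSP70 of the endoplasmic reticulum, was at 82.5, 82.9 and 80.4 RPKM in ceca against 85.7, 84.7 and 89.5 RPKM in interceca without overlap and did not pass (log2 fold change -0.08 ± 0.04 SE, adjusted p = 0.198). P4HB, both a disulfide isomerase and a subunit of collagen prolyl hydroxylase, had a log2 fold change of -0.09 ± 0.07 SE. SERPINH1 (HSP47), the collagen chaperone, was at 126, 138 and 163 RPKM in ceca against 115, 144 and 154 RPKM in interceca, and its tissues overlapped (log2 fold change 0.05 ± 0.12 SE, adjusted p = 0.817).

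In the authors' deposited table, 10 of the 74 genes had an adjusted p under 0.05, 3 higher and 7 lower in ceca, against 28.9% of all genes tested (14.4% higher and 14.5% lower). Of these, 9 were also called by limma in the same direction. In the authors' deposited table FKBP51 was called (adjusted p = 0.0244) and DNAJC10, DNAJC18 and PDIA5 were not (adjusted p = 0.0958, 0.138 and 0.0705). HSPB7, not tested here, had an adjusted p of 0.00177 in the authors' deposited table.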

How the data were processed

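RNA of ceca and interceca was sequenced in 3 libraries each, and depth ranged from 15809502 to 22909165 recovered reads. The authors deposited RPKM per gene and library, and the tools named, per the submitters' processing notes, were STAR, HTSeq, edgeR and bcl2fastq with the genome build galGal4 (no roles or settings given). Per the file headers, the series table also holds the authors' log2 fold change, p-value, adjusted p and −log10 of the adjusted p, which were copied and not recomputed. The deposited log2 fold change had the sign of ceca over interceca from the RPKM in 99.7% of genes tested. How multi-mapping reads and strand were treated is not given in the sources used here.

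From the RPKM, 1 row without a gene identifier was left out, and the 10678 genes that reached 1 RPKM in 3 or more of the 6 libraries were tested with limma 3.58.1 in R 4.3.3, with an intensity trend, on log2(RPKM + 0.5), which understates the fold changes of low genes. P-values were adjusted after Benjamini and Hochberg over all genes tested, with a threshold of 0.05. The RPKM steps gave whole reads and whole gene lengths, within 0.01 reads, for 99.99% of genes tested. These reads were used for depth and for 1 alternative with limma-voom. Scripts were tested on simulated data.

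Values per library were given for up to 4 called genes per class and direction, the gene of highest mean RPKM per class, and fixed heat shock and endoplasmic reticulum stress genes, and other genes were added where a comparison or an alternative turned on them. The genes, lists and classes were chosen with earlier results of these data known. Deviations of same-numbered libraries from their tissue means correlated at 0.364, 0.227 and 0.213 over genes, against -0.238 to 0.0314 for other pairs. Deviations from a tissue mean cancel out over its libraries, so the other pairs are not an independent reference. The labels do not explain the numbers. The main fit did not pair the libraries, and the replicate number entered as a block only in an alternative. For HSP90AA1, the SE was 0.16 in the main fit and 0.03 with the block. The planned sequence display was not made, since no sequence of these genes was used here.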

Additional observations from a re-analysis of the deposited data

How the results depend on the processing

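Of the 12 chaperone and folding genes called, FKBP1B, DNAJB6, HSPB1, HSPB8, FKBP9, HSP90AB1 and CANX kept their direction and their call under all 15 alternatives, and no value named in the text changed sign while called. The count higher in ceca, 5, was 3 with median-of-ratios scaling, 3 with quantile normalization and 2 with limma without a trend, and 2 to 4 on leaving out each library in turn. The count lower in ceca, 7, was 9 without the filter on low values, HSPB7 and FKBP25 being added, and 5 to 7 on leaving out a library. The count over all genes tested, 1439 higher, was 947 to 1314 on leaving out a library, the lowest without ceca replicate 3, and 1661 with limma-voom. The pathway list, at 6 higher and 6 lower, gave 3 to 5 higher and 5 to 11 lower on leaving out a library, the 11 without interceca replicate 1. The cause of these changes was not tested, beyond the smaller number of libraries where one was left out. Scaling moved the median log2 fold change of all genes tested to 0.001 or 0.022, against 0.010 as deposited.

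With the replicate number as a block, 11 chaperone and folding genes were lower and 7 higher, the pathway list had 10 higher and 10 lower, and all genes tested 1879 higher and 1888 lower. The block ended no call among the 12. The planned limma-voom fit with TMM scaling was not run. It was replaced, after the data were seen, by limma-voom with the library sizes that the RPKM steps give. Reads limit what can be said of HSPB7, HSPB2 and DNAJC5B, which had at most 11 reads in any library.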

Other observations

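Several widely expressed chaperone genes were listed at 0 in all 6 libraries. Besides CALR and HSF1 these were STIP1 (HOP), which links HSP70 to HSP90, HSPBP1, an exchange factor of HSP70, CLPB, PPIL1 and SYVN1, a ubiquitin ligase of the endoplasmic reticulum. KRT8 and KRT18, keratins of simple epithelia, were at 0 as well. A value listed at 0 in a table of RPKM can be a gene model that takes no reads, and whether these genes were transcribed was not tested.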
